A study of Mus musculus with 4 samples.

Results

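Genes that carry bile acids through the small intestinal epithelium, or sense them there, were followed across enterocyte types, library pairs and genotypes. They are Slc10a2, Fabp6, Slc51a, Slc51b, Fgf15, Nr1h4 and Nr0b2, 7 of the 32285 features in the files, and were taken by name, as the uptake, binding, export and FXR (farnesoid X receptor) signalling genes of bile acid handling. Single epithelial cells of the small intestine, sorted by flow cytometry from mice aged 25 weeks, were profiled with a 3′ single-cell kit that counts unique molecular identifiers (UMIs). The 4 libraries were 2 of wild type mice and 2 of mice carrying G5081A, a point mutation of the mitochondrial alanine tRNA gene TrnA, with a mutation load of 77% in mutant 1 and 81% in mutant 2. Wild type 1 and mutant 1 (set A) have no sex in their titles and were made with Cell Ranger 7.0.0, and wild type 2 and mutant 2 (set B) are titled male and were made with Cell Ranger 7.1.0. The labels give the tissue as small intestine with no segment, and leave unsaid whether each library is a different animal, which means that a p-value here reflects library-to-library spread that may be technical. Acute colitis appears in the title of the series, yet none of the sample labels mentions a colitis treatment.

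Bile acids are made in the liver, released into the duodenum and taken back mainly in the ileum, the distal part of the small intestine. There the apical sodium-dependent transporter Slc10a2 brings them into the enterocyte, the cytosolic protein Fabp6 binds them, and the heterodimer of Slc51a and Slc51b exports them across the basolateral membrane toward the portal blood. Inside the enterocyte they activate the nuclear receptor FXR, encoded by Nr1h4, whose known targets include Fabp6, Slc51a, Slc51b, the co-repressor Nr0b2 (SHP) and the hormone Fgf15, which lowers bile acid synthesis in the liver.

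The 300 bases around the transcription start (250 before, 50 after) were read from RefSeq for GRCm38.p6 and were found for 6 of the 7 genes. They were searched on both strands for the FXR element, an inverted repeat of AGGTCA with 1 base between the arms (13 bases), allowing 3 mismatches. The promoters of Fabp6, Slc51a and Slc51b held a match and are shown for that reason, 5′ to 3′ on the strand of the gene, with the matched bases in capitals. They lie at chr11:43601513-43601812, chr16:32487830-32488129 and chr9:65422724-65423023, all on the minus strand.
Fabp6: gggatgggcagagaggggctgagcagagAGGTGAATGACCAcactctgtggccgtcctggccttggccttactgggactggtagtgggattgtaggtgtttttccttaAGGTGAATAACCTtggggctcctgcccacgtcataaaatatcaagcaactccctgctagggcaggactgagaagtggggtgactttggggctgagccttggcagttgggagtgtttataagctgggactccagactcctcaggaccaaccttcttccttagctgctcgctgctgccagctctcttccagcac
Slc51a: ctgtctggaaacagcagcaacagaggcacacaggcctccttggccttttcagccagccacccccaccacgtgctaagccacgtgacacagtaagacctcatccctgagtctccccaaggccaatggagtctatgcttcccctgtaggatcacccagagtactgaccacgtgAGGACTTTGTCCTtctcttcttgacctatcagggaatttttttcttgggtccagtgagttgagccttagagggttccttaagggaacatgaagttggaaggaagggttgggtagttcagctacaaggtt
Slc51b: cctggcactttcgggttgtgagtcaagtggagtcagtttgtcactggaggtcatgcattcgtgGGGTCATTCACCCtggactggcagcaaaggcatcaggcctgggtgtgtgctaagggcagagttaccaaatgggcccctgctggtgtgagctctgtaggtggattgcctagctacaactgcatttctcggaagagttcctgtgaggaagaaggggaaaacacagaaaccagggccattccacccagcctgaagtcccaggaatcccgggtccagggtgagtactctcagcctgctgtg
Fabp6 had 2 such matches, with 2 mismatches each, starting 222 and 142 bases before the start, and Slc51a and Slc51b had 1 each with 3 mismatches. Such a match was present in 11.4% of 32851 promoters of the same length. With 1 mismatch fewer, only Fabp6 of the 6 kept a match, against 1.14% of all promoters, and with 1 more all 6 had one, against 56.4%. The LRH-1 site TCAAGGTCA, with 1 mismatch allowed, was in none of the 6 windows and in 7.46% of all promoters. An inverted repeat of GTTAAT with 1 base between (the HNF1 element, 3 mismatches allowed) was in the windows of Slc10a2 and Nr1h4 and in 8.33% of all. The GATA site AGATAA was in the window of Nr1h4 and in 11.2% of all. The window of Nr1h4 lies inside the gene as GENCODE draws it, at an internal start, so it is 1 of the starts of that gene. A match is a description of these letters and not a site shown to be bound.

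After filtering, 4258, 10100, 7273 and 7605 epithelial cells were left, in the order wild type 1, mutant 1, then wild type 2, mutant 2, which all lists of values follow. Median UMIs per kept cell were 20403 in wild type 1 and 9458 to 10711 in the others. Levels are in CPM, counts of a gene scaled to the same total of UMIs in every class and library, and are not compared between genes. The 7 genes were left out of the genes used for clustering and are in none of the marker lists. Libraries shared 26 to 60 barcodes by pair, of which 7 to 27 were among the kept cells. Enterocytes fell into 6 clusters. Cluster 2, with 1190 cells of wild type 1 among its 1195, had the crypt genes Lgr5 and Olfm4 at the top by fold but only 2 stem markers among its leading genes, so it has no name, and the crypt class holds just 124 cells of that library. Cluster 4, called distal enterocytes, had 8 of 18 distal markers among its 50 leading genes, Tmigd1 and Naaladl1 among them, and Gata4, a transcription factor of the proximal intestine, was at 14.4 to 28.5 CPM there against 125 to 145 CPM in other enterocytes. Lower villus cells are a class of their own (clusters 7, 9 and 11). Each has Krt19 among its 10 leading genes, and they had 7, 4 and 3 lower villus markers among the leading 50. Cluster 8, an enterocyte cluster named proximal, had 6 proximal and 5 lower villus markers there, so the classes are not cleanly apart. The lower villus class was added after levels had been seen. Its clusters follow the libraries: 676 of 677 cells of cluster 7 were from wild type 1, 2249 of 2362 cells of cluster 11 from mutant 1, and 858 and 1046 of the 1913 cells of cluster 9 from wild type 2 and mutant 2.

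**Figure D1:**
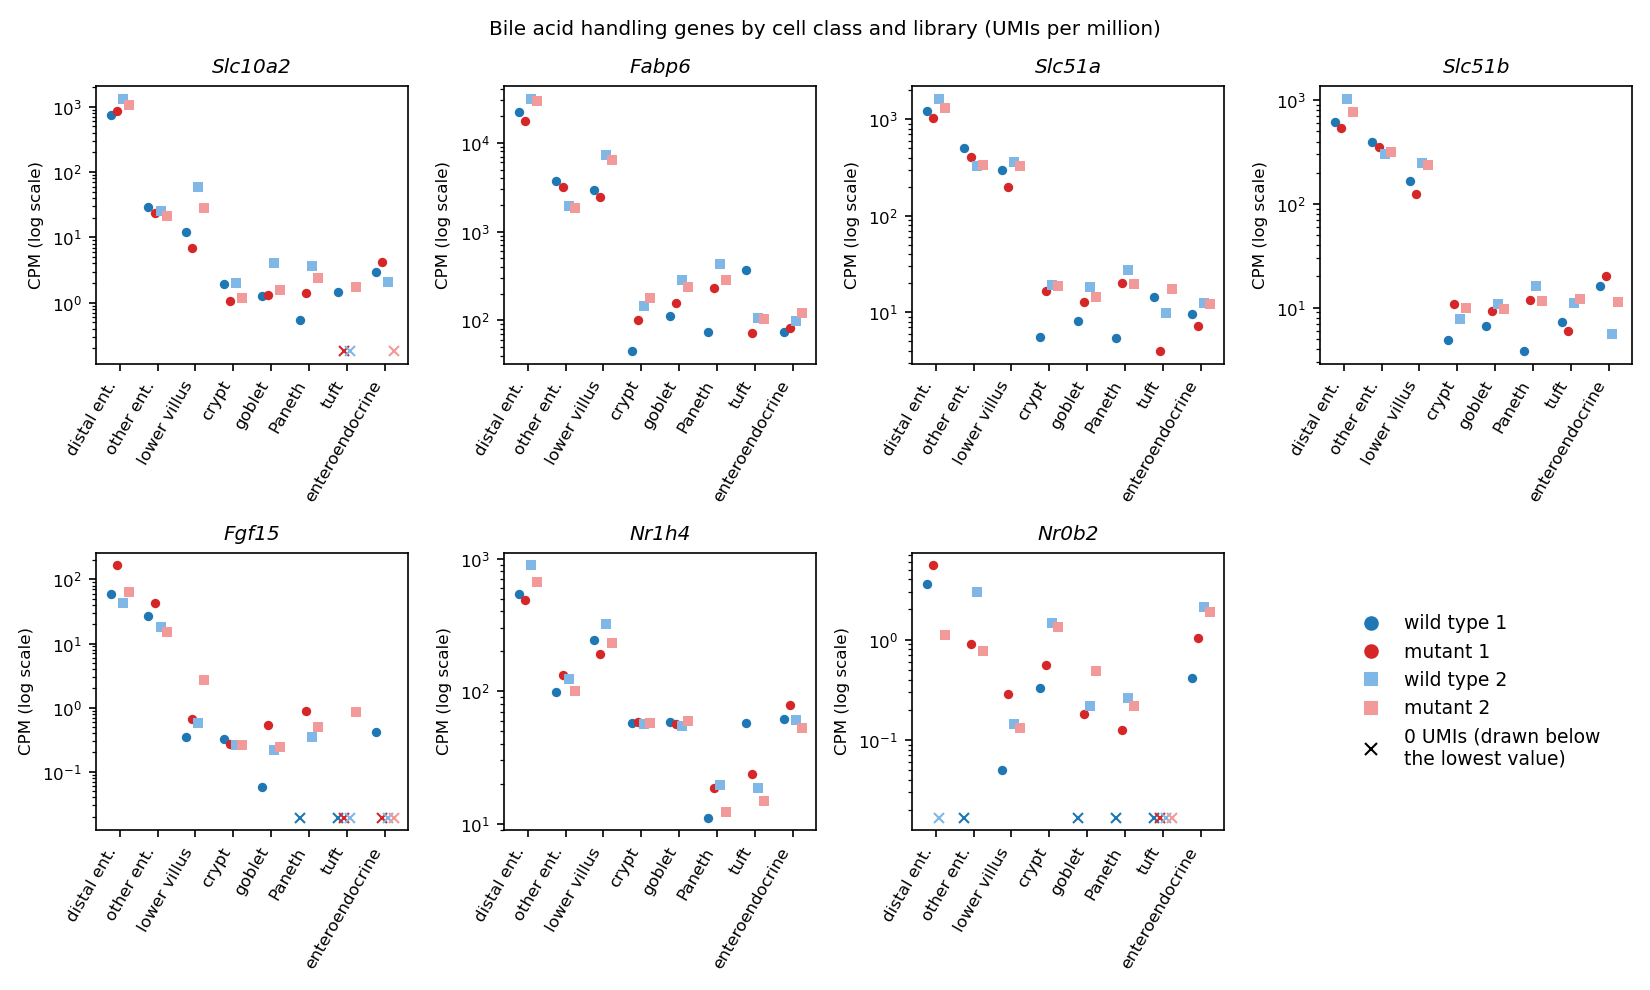
Level of each gene (CPM, log scale) in 8 cell classes, 1 point per library: circles are set A, squares set B, blue wild type and red mutant, and crosses mark 0 UMIs. Distal enterocytes hold the highest level of 6 genes in every library, and Nr0b2 has no steady order.

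Slc10a2, on chromosome 8 (5083219 to 5105351, minus strand, GRCm38), was the gene most limited to distal enterocytes. Its level there was 757, 858, 1333 and 1047 CPM, against 29.6, 23.4, 25.5 and 21.6 CPM in other enterocytes. The lowest distal value was far above the highest value in other enterocytes, and the ratio of distal to other enterocytes ran from 25.6 in wild type 1 to 52.3 in wild type 2. A Slc10a2 UMI was found in 74.5%, 61.9%, 88.1% and 85.3% of distal enterocytes. In goblet cells, which are not known to absorb bile acids, the share was 0.88% to 2.97% at median depths of 8354 to 20706 UMIs per cell, well above the 1839 to 3865 UMIs of distal enterocytes. Lower villus cells had 12.3, 6.91, 58.4 and 28.5 CPM, a range that overlaps that of other enterocytes. Because distal enterocytes are few, they gave 73.9%, 64.2%, 40.9% and 67.8% of all Slc10a2 UMIs of a library.

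Fabp6, on chromosome 11 (43596049 to 43601540, minus strand), was high over a wider stretch of the villus. Distal enterocytes had 22418, 17444, 31425 and 29525 CPM, other enterocytes 3667, 3209, 1919 and 1831 CPM, and lower villus cells 2969, 2455, 7348 and 6481 CPM. Distal enterocytes were above both other classes in every library, while the order of the other two differed by set: lower villus cells were below other enterocytes in both libraries of set A and above them in both of set B. The order in set A rested on single clusters of other enterocytes. Cluster 5 (47 cells) gave 12786 of the 17237 Fabp6 UMIs of wild type 1, and without it the level was 1278 CPM. In mutant 1, cluster 24 (113 cells) gave 12472 of 24861, and without it the level was 1752 CPM. Both values are below the lower villus cells of their library. Lower villus cells, with more UMIs per cell, gave the largest share of Fabp6 UMIs: 49.0%, 54.6%, 61.3% and 50.1%. The level in goblet cells was 112 to 287 CPM and a UMI was found in 48.9% to 72.5% of them, so a single Fabp6 UMI does not set an enterocyte apart from a goblet cell. Crypt cells, at 44.8 to 179 CPM, were below the goblet cells of the same library.

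The exporter subunits were less tied to distal enterocytes. Slc51a (chromosome 16, 32474504 to 32487879, minus strand) had 1219, 1031, 1636 and 1320 CPM in distal enterocytes and 499, 403, 328 and 332 CPM in other enterocytes. The distal level was thus 2.45 to 4.98 times that of other enterocytes in the same library. Slc51b (chromosome 9, 65412714 to 65422955, minus strand) had 617, 545, 1037 and 766 CPM in distal enterocytes and 396, 352, 302 and 315 CPM in other enterocytes, a ratio of 1.55 to 3.43. Lower villus cells had less Slc51b than other enterocytes in every library (168, 125, 247 and 238 CPM), whereas for Slc51a the ranges of these classes overlapped (299, 200, 359 and 329 CPM in lower villus cells). In cluster 5, one of the 2 proximal enterocyte clusters, Slc51b stood at 721, 645, 569 and 681 CPM, inside the range of distal enterocytes. In the same cluster Slc10a2 was at 78.1, 28.7, 45.6 and 43.6 CPM, with no overlap with the distal range. Cluster 5 had 5 proximal and 2 distal markers among its leading genes, and Fabp6 at 10504.5, 3484, 4320 and 4802 CPM. In cluster 8, the other proximal cluster, Fabp6 was at 2033.5, 976, 715 and 192 CPM. Slc51b there was at 501, 226, 279 and 258 CPM, below the distal range. Whether cluster 5 mixes cells of both regions was not tested.

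Nr1h4 (chromosome 10, 89454234 to 89533585, minus strand), the FXR gene, had 545, 490, 893 and 668 CPM in distal enterocytes. Its second highest class was the lower villus, with 245, 190, 322 and 233 CPM, above the 99.1, 133, 124 and 99.6 CPM of other enterocytes in every library. Crypt cells had 57.2, 58.3, 56.5 and 57.7 CPM, goblet cells had 54.6 to 59.7 CPM, and the unnamed cluster 2 of wild type 1 had 70.9 CPM. Paneth cells, the defensin-making cells of the crypt base, were lower in every library at 11.1 to 19.5 CPM. Nr0b2 (chromosome 4, 133553376 to 133556536, plus strand), which encodes the co-repressor SHP, was near the limit of detection: 26, 48, 107 and 71 UMIs in whole libraries. Its level in distal enterocytes was 3.57, 5.53, 0 and 1.10 CPM, and the 0 of wild type 2 allows up to 4.27 CPM (3 UMIs, counting error only). Outside wild type 1, named crypt cells gave 46.7% to 57.7% of the Nr0b2 UMIs. In wild type 1 they gave 3.85%, and 17 of its 26 UMIs lay in cluster 2.

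Fgf15 (chromosome 7, 144896531 to 144900953, plus strand), the hormone gene, followed Slc10a2 only in part within the enterocytes. Enterocytes gave 86.4% to 92.6% of its UMIs, and lower villus cells were at 0.35, 0.66, 0.58 and 2.68 CPM, against 0.06 to 0.54 CPM in goblet cells. Distal enterocytes had 58.9, 167, 42.7 and 62.7 CPM and other enterocytes 26.8, 43.4, 18.0 and 15.4 CPM, a ratio of 2.20 to 4.08. Its highest cluster in every library was cluster 24, at 72.6, 237, 81.9 and 71.2 CPM, from 21, 160, 59 and 79 UMIs. The margin over cluster 4 was small in wild type 1 and mutant 2 (58.9 and 62.7 CPM in cluster 4), and its counting error was not computed. Cluster 24 is led by Sis, Mgam and Slc5a1, genes of sugar digestion and uptake, and had 6 enterocyte markers, 2 distal and 1 proximal marker among its 50 leading genes. It held 49, 113, 104 and 193 cells, and a Fgf15 UMI was found in 28.6%, 39.8%, 20.2% and 13.99% of them. By share of cells it was not the highest in wild type 1 (cluster 5, 29.8%) or in mutant 2 (clusters 4 and 5, 16.2% and 17.4%). Slc10a2 in the cells of cluster 24 was 31.1, 108, 108 and 58.5 CPM, below the distal range in every library. Clusters 8 and 14 had the lowest Fgf15. Cluster 8, the other proximal cluster, had 9.57, 5.98, 0.53 and 2.01 CPM. Cluster 14, with the villus tip markers Clca4a, Ada, Nt5e and Slc28a2, had 5.39, 17.0, 0 and 0 CPM from 2, 4, 0 and 0 UMIs, and its zeros allow up to 2.79 and 4.43 CPM (3 UMIs), so these clusters cannot be ranked. Cluster 14 also had the least Slc51a and Nr1h4 of the 6 enterocyte clusters in every library.

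**Figure D2:**
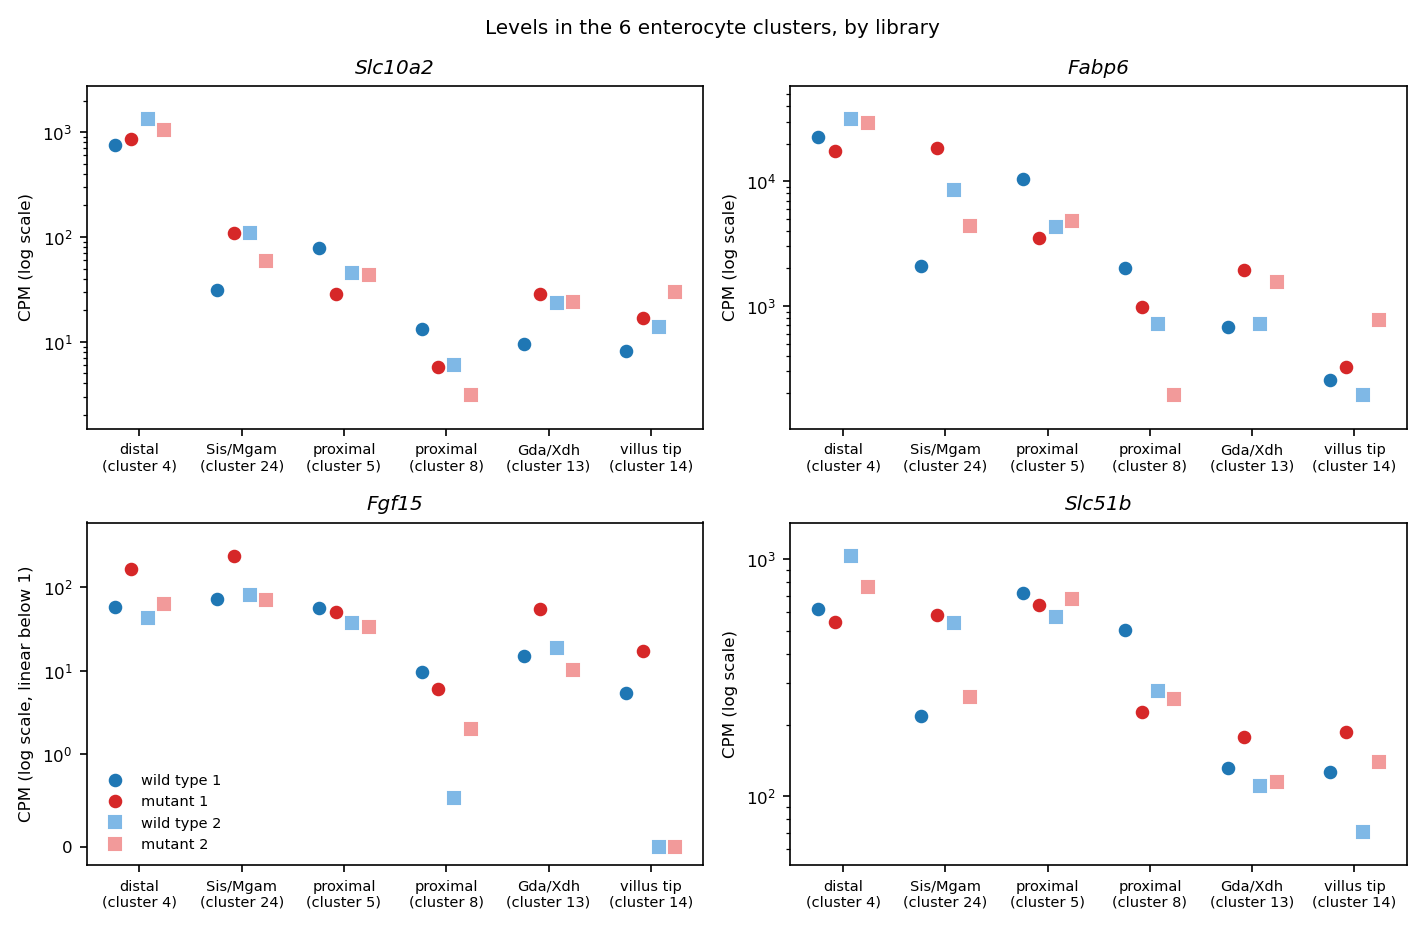
Level (CPM, log scale, linear below 1 for Fgf15) of 4 genes in the 6 enterocyte clusters, 1 point per library, circles for set A and squares for set B, blue wild type and red mutant. Slc10a2 stands alone in cluster 4, the Slc51b levels of clusters 4 and 5 overlap, and Fgf15 is highest in cluster 24.

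Within single enterocytes, a Slc10a2 UMI went together with one of Fabp6. Cells with at least 2000 UMIs were thinned to 2000 UMIs, and cells with fewer were left out. Of the enterocytes with a Slc10a2 UMI, 98.0%, 97.6%, 85.0% and 97.7% also had one of Fabp6, against 43.6%, 36.9%, 29.7% and 35.8% of those without. Goblet cells at the same depth had a Fabp6 UMI in 17.8%, 19.6%, 20.0% and 28.0% of cells. Whether such UMIs are background or low expression was not tested. Read the other way, 41.5%, 31.0%, 20.5% and 32.3% of enterocytes with a Fabp6 UMI had one of Slc10a2, and in the lower villus this was 4.4%, 2.6%, 15.4% and 6.7%. Of enterocytes with a Fgf15 UMI (51, 87, 48 and 76 thinned cells), 37.3%, 35.6%, 35.4% and 38.2% had Slc10a2, against 23.1%, 12.1%, 7.63% and 14.1% of those without. Inside the distal cluster this difference was absent in 3 libraries: Slc10a2 was in 61.3%, 64.5% and 73.3% of the cells with Fgf15 and in 65.8%, 67.0% and 75.2% of those without in wild type 1, mutant 1 and mutant 2. Wild type 2 had only 5 distal cells with Fgf15, all with Slc10a2.

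Over 21 points, each an enterocyte cluster in 1 library with at least 50 cells, Slc51a and Slc51b had a Pearson r of 0.93 and Slc10a2 and Fabp6 one of 0.90 on log2(CPM + 1). Fgf15 had 0.67 with Slc10a2, 0.80 with Fabp6 and 0.62 with Nr1h4. These are descriptions: points share libraries, depth and clusters. Among 7392 genes of at least 10 CPM, those most like the mean of the 7 were Prss23 (0.95), Slc30a1 (0.92), Abhd3, Pik3ap1, Scin, Csnk2a1, Gipc2, Dpep1, Enpep and Mgat4c (0.85). The 5 with the most opposite pattern were Onecut2 (-0.90), a transcription factor, then St8sia3os, Vkorc1l1, Zcchc9 and Rab1a (-0.78).

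The genotypes were compared first in all enterocytes, where the sets went opposite ways for uptake and binding. Slc10a2 was 221, 111, 84.0 and 121 CPM, so that the mutant was 0.4997 times the wild type within set A (counting interval 0.460 to 0.543) and 1.44 times in set B (1.35 to 1.55). Fabp6 was 8608, 4697, 3239 and 4520 CPM, with ratios of 0.546 and 1.40, and Slc51a had ratios of 0.680 and 1.11. Over the 4 libraries the log2 ratio of mutant to wild type was -0.39 (SE 0.40) for Slc10a2, -0.36 (SE 0.51) for Fabp6, -0.27 (SE 0.34) for Slc51a, -0.12 (SE 0.29) for Slc51b, 0.45 (SE 0.43) for Fgf15, -0.22 (SE 0.26) for Nr1h4 and -0.96 (SE 0.63) for Nr0b2. None of the 7 passed the edgeR quasi-likelihood test with Benjamini-Hochberg adjustment (adjusted p = 0.945 to 0.966), and nor did any other gene: 0 of 12064, or 0%, with 344 at an unadjusted p under 0.05, 0 by DESeq2, and 8 with the set as a term, or 0.0663%. From those all-enterocyte sums alone, a change in the number of distal cells and a change in RNA per cell cannot be told apart. The distal share and the levels inside distal enterocytes are given below.

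The share of enterocytes in the distal cluster moved with these levels. It was 33.2% (exact Clopper-Pearson 95% interval 30.2 to 36.3) in wild type 1 and 24.7% (22.5 to 27.0) in mutant 1, then 5.12% (4.31 to 6.03) in wild type 2 and 13.8% (12.6 to 15.2) in mutant 2, intervals that cover counting error only. The mutant thus had the lower share in set A and the higher share in set B, as for Slc10a2 and Fabp6. With mitochondrial UMIs under 15%, a further cluster was named distal, of 534 cells with a median of 13476 UMIs. It held 48, 178, 160 and 148 cells. The distal cluster used here had a median of 3189.5 UMIs, so the distal share depends on that limit. The part of the distal share in the enterocyte-wide levels was not tested.

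**Figure D3:**
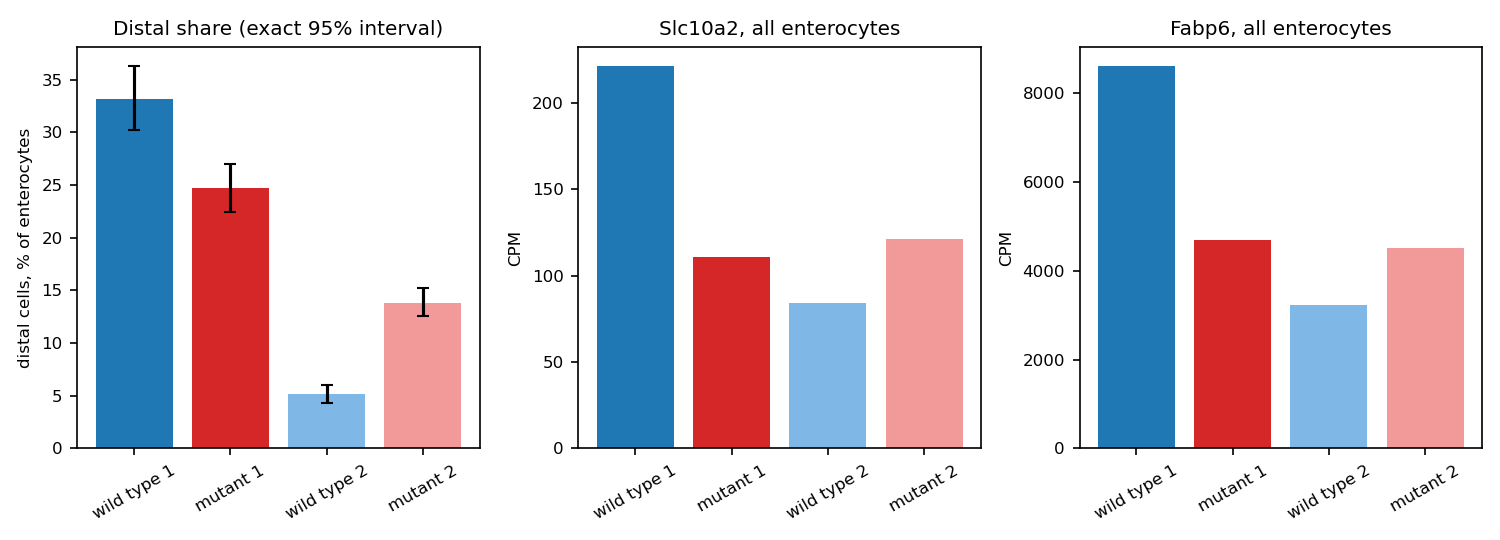
Left, distal enterocytes as a percentage of all enterocytes by library, with exact 95% binomial intervals. Middle and right, Slc10a2 and Fabp6 (CPM) over all enterocytes. In each panel mutant 1 is below wild type 1 and mutant 2 above wild type 2.

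Inside distal enterocytes the uptake, binding and export genes had levels that overlapped between genotypes, and Fgf15 was higher in both mutants. Slc10a2 had a ratio of mutant to wild type of 1.13 within set A and 0.786 within set B. In the same order Fabp6 had 0.778 and 0.940, Slc51a 0.845 and 0.807, Slc51b 0.883 and 0.738, and Nr1h4 0.899 and 0.748. For these 5 genes the levels of the genotypes overlapped, with wild type 2 above and wild type 1 below at least 1 mutant, and log2 ratios over the 4 libraries ran from -0.36 (SE 0.37, Slc51b) to -0.17 (SE 0.37, Slc10a2). Fgf15 rested on 99, 151, 30 and 114 UMIs, and both mutants (167 and 62.7 CPM) were above both wild types (58.9 and 42.7 CPM). Within set A the mutant was 2.84 times the wild type (counting interval 2.19 to 3.69), and within set B 1.47 times (0.975 to 2.28), whose interval includes 1. Other enterocytes, which gave 51.9% to 82.4% of Fgf15 UMIs, did not share this: the ratio was 1.62 in set A and 0.852 (0.716 to 1.01) in set B. Over all enterocytes it was 1.60 and 1.04 (0.893 to 1.22). For a matched depth, distal enterocytes with fewer than 2000 UMIs were left out, and the median of this class in mutant 1 was 1839 UMIs. In the rest, thinned to 2000 UMIs, a Fgf15 UMI was found in 10.5% and 21.7% of cells in set A and in 4.07% and 8.60% in set B. Its log2 ratio was 1.05 (SE 0.38), with an edgeR p of 0.0185 before adjustment and 0.9997 after adjustment over 7971 genes. It passed only without mutant 2 (log2 ratio 1.55, adjusted p = 0.00111 in edgeR), and without mutant 1 the log2 ratio was 0.34.

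No gene was called in distal enterocytes (0 of 7971, or 0%, by edgeR, with 200 at an unadjusted p under 0.05, 0 by DESeq2 and 0% with the set as a term). Leaving out wild type 1, mutant 1, wild type 2 or mutant 2 gave 15, 54, 17 and 56 calls in edgeR. Of the 7971 genes, 14.5% had both mutants above both wild types, as Fgf15 did, and 11.8% had both below. In distal enterocytes of mutant 1, which had the highest Fgf15, the summed stem cell markers were 669 CPM against 189 to 298 CPM in the others, the 12 cycling markers 598 against 144 to 253 CPM, and the median depth was 1839 UMIs against 3630 to 3865. The Paneth markers were 10802 CPM there, close to the 10996 CPM of mutant 2 and above the 3825 and 7258 CPM of the wild types. Their part in the Fgf15 level was not tested.

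**Figure D4:**
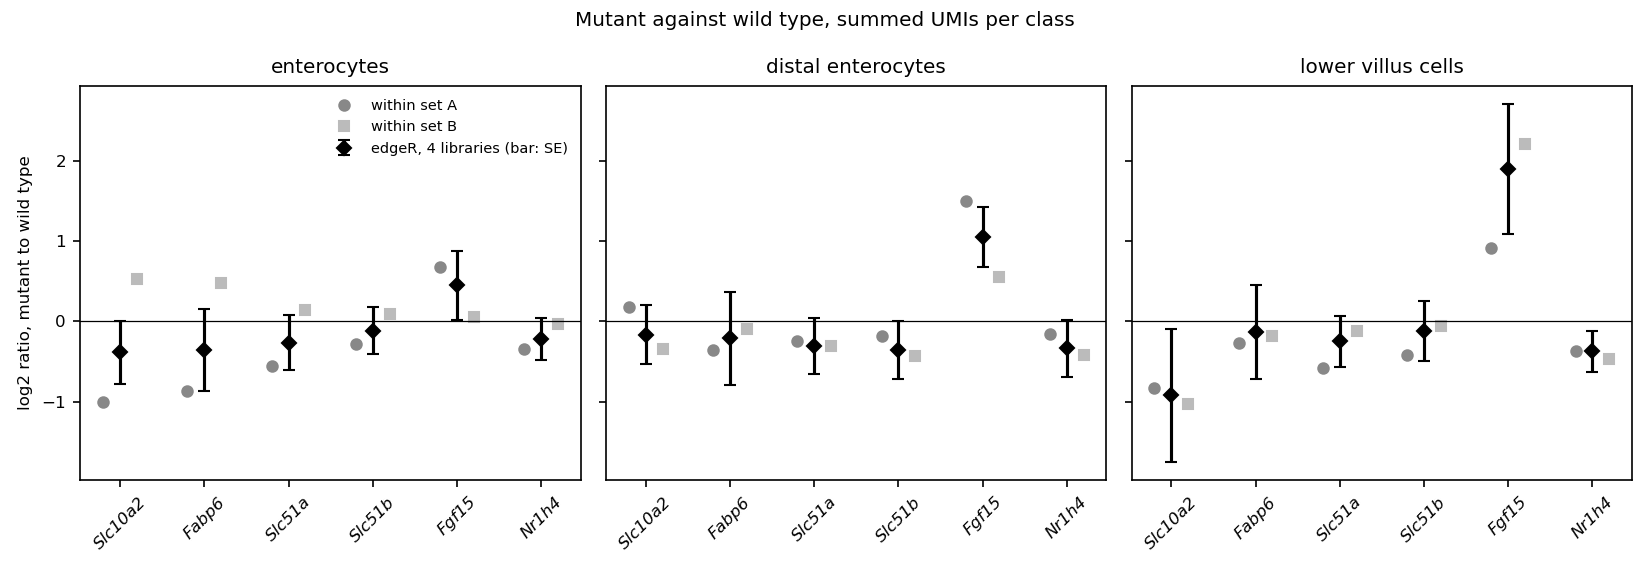
Log2 ratio of mutant to wild type for 6 genes in all enterocytes, distal enterocytes and lower villus cells: grey points are the ratios within set A and set B, black diamonds the edgeR value over 4 libraries with its SE. In enterocytes the set points of Slc10a2 and Fabp6 lie on opposite sides of 0, and Fgf15 is above 0 in both sets in all 3 panels. Other enterocytes, not drawn, had a log2 ratio of -0.23 for Fgf15 in set B.

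In lower villus cells the uptake, binding and export genes and Nr1h4 were all lower in the mutant within each set. This direction was not particular to them. Of 16 nuclear receptors and partners tested there, 8 were lower in both sets and 0 higher. Among 11 other transporters and binding proteins this was 6 and 1, among 13 regional transcription factors 5 and 1, and among 11 metabolism genes 6 and 0. The share over all genes was not counted. Fabp6 had ratios of 0.827 and 0.882, Slc51a 0.670 and 0.916, and Slc51b 0.747 and 0.964, and for these 3 genes the genotypes overlapped between sets. Slc10a2 had ratios of 0.561 (counting interval 0.458 to 0.686) and 0.488 (0.433 to 0.549), but the sets differed more than the genotypes, and the log2 ratio was -0.92 (SE 0.83). At clustering resolution 0.5 it was -2.26 (SE 0.52, adjusted p = 0.989 in edgeR), but the class then held only 37 and 8 cells of wild type 1 in its clusters, while 1911 cells of that library lay in an unnamed one. Nr1h4 had ratios of 0.775 and 0.722, with both mutants below both wild types, a pattern of 14.4% of the 12788 genes tested. Both Fgf15 values of the mutants were above those of the wild types, as for 5.43% of genes, from 7, 16, 8 and 41 UMIs. No gene passed there (0 of 12788 in edgeR, or 0%, with 92 at an unadjusted p under 0.05, 1 by DESeq2 and 0% with the set as a term), and the clusters compared are largely 1 library each.

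Summed over all epithelial cells, Slc10a2 was 19.8, 11.98, 26.1 and 30.3 CPM, Fabp6 1385, 1079, 1893 and 2126 CPM, Slc51a 129, 98.9, 140 and 153 CPM, and Slc51b 77.8, 69.3, 106 and 119 CPM. For these 4 genes the mutant was lower in set A and higher in set B. Fgf15 was 2.79, 5.26, 3.75 and 4.68 CPM, with both mutants above both wild types (2.73% of genes), and a log2 ratio of 0.71 (SE 0.28, edgeR adjusted p = 0.9997). Nr1h4 was 116, 96.2, 111 and 97.9 CPM, with both mutants below both wild types (20.4% of genes), and a log2 ratio of -0.11 (SE 0.16). Nr0b2 was 0.30, 0.48, 1.22 and 0.77 CPM. The edgeR test called 0 of 16696 genes (0%, 108 at an unadjusted p under 0.05), DESeq2 called 6, and 0.126% were called with the set as a term, none of them one of the 7. In all enterocytes no member had genotypes that did not overlap, against 14.6% of genes with both mutants above and 19.2% with both below.

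The share of enterocytes with a UMI of a gene gave no clearer order. Only cells with at least 4000 UMIs were counted, thinned to 4000, and the median depth of enterocytes was 3536.5, 2468, 2995 and 3668 UMIs. The thinned shares thus describe the deeper cells only. For Nr1h4 the mean was 43.7% ± 9.11 (SD, n = 2) in wild type and 36.3% ± 0.567 (SD, n = 2) in the mutant, with an exact two-sided permutation p of 0.333, the smallest that 2 against 2 libraries can give. For Slc10a2 it was 23.9% ± 14.8 and 13.5% ± 5.44 (exact permutation p = 0.667, SD, n = 2), and for Fgf15 8.31% ± 4.21 and 8.38% ± 3.95 (exact permutation p = 1, SD, n = 2). Without thinning, over all enterocytes, the means were 37.8% and 42.8% for Nr1h4, 19.5% and 19.3% for Slc10a2, and 7.61% and 10.8% for Fgf15.

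Other genes of the pathway were read from 6 lists. No member of any was called in any class by the main edgeR test (4 libraries, filter on low counts, no set term). Among bile acid and sterol transporters and binding proteins, 11 of 15 were tested in enterocytes, with log2 ratios of -0.78 to 0.64 and a median of -0.24, against -0.0049 over all genes. Fabp1, the liver-type fatty acid and bile acid binding protein, ran against Fabp6: 23.2, 75.2, 88.2 and 135 CPM in distal and 2112, 4262, 8921 and 8973 CPM in other enterocytes. Fabp2, the intestinal form, was 4203 to 5899 CPM in distal and 7521 to 11156 CPM in other enterocytes, and Abcg2, an apical efflux pump, 555 to 852 against 199.8 to 241 CPM. Abcc2, which exports conjugates, overlapped between these classes, and the bile acid receptor gene Gpbar1, named after its values were seen, had 0 UMIs in both.

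Of 16 nuclear receptors and partners, all tested in enterocytes, log2 ratios were -0.35 to 0.17 (median -0.10). Hnf4g, a lineage factor of enterocytes, Ncor1, Ppargc1a and the vitamin D receptor gene Vdr had the highest levels, and all 4 overlapped between distal and other enterocytes. Of 14 regional transcription factors 13 were tested (median -0.19), and Maf was higher in distal (718 to 1196 CPM) than in other enterocytes (397 to 632 CPM), the reverse of Gata4. Klf5, a transcription factor of proliferating epithelium, was 382 to 437 and 342 to 521 CPM, and Creb3l3 123 to 243 and 170 to 361 CPM, both overlapping between the classes. In the Fgf15 signalling list 3 of 6 were tested (median -0.25). Malrd1, known to affect Fgf15 output, was 640, 709, 1110 and 876 CPM in distal and 223, 224, 406 and 265 CPM in other enterocytes. Fgfr2 was 48.4 to 81.8 and 40.4 to 59.7 CPM, Fgfr3 1.10 to 6.63 and 2.45 to 2.80 CPM, and the receptor gene Fgfr4 at most 1.16 CPM in either class. Outside the enterocytes Fgfr4 was 6.58 to 9.81 CPM in crypt cells and 1.70 to 4.27 CPM in lower villus cells. The co-receptor gene Klb, named after its values were seen, had at most 0.55 CPM. Of the 7 liver synthesis genes 1 was tested, Baat, which conjugates bile acids, at 3.32 to 7.15 CPM in distal and 0.77 to 1.33 CPM in other enterocytes. Slc27a5, Akr1d1 and Alb had at most 3 UMIs in either class of any library. Cyp7a1 and Cyp8b1, enzymes of bile acid synthesis named after their values were seen, had 0 UMIs in enterocytes of all libraries.

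All 11 genes of bile acid and xenobiotic metabolism were tested in enterocytes, with log2 ratios of -1.40 to 0.21 (median -0.16). Cyp3a13, Sult1b1, Ces2e and Ugt2b34, the most abundant, had log2 ratios of -0.31, 0.04, -0.07 and 0.12, each within its SE. The lowest was that of Cyp3a11, a drug and bile acid hydroxylase, named after its values were seen: 97.3, 39.6, 190 and 67.9 CPM, lower in the mutant of both sets. Its log2 ratio was -1.40 (SE 0.40, edgeR adjusted p = 0.945) without and -1.40 (SE 0.25, edgeR adjusted p = 0.0199) with the set as a term. It also passed in edgeR with no filter on low counts (adjusted p = 0.00249) and without wild type 1 (adjusted p = 0.0359). In distal enterocytes it was 39.8, 23.2, 49.8 and 20.3 CPM.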

How the data were processed

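The deposited files hold raw UMI counts for each gene and barcode. The file headers name Cell Ranger 7.0.0 for set A and 7.1.0 for set B, and the submitters' processing notes name mm10. Barcodes had 99772712 to 127796409 UMIs per library. Kept barcodes had 500 or more genes, 1000 or more UMIs and a mitochondrial share below 30%, and scrublet doublets (246, 1364, 1059 and 1060, a rate set to 0.8% per 1000 barcodes) were removed. Cells were clustered with scanpy 1.11.5 (counts scaled to 10000, 2000 variable genes without the 7 members, centred within library, Leiden resolution 1.0, 26 clusters). Names needed 3 markers among 50 leading genes, and lymphocytes were left out. UMIs summed by class and library were tested in edgeR 4.0.16 (R 4.3.3, TMM, filterByExpr, no set term, call threshold 0.05), with DESeq2 1.42.0 as an alternative. Tested on simulated data for distal enterocytes (7775 genes), edgeR found 1 of 100 changes of 2-fold, 41 of 100 of 4-fold and 0 false ones, and with the set as a replicate block 55, 89 and 4. Apart from the changes, the simulated wild type and mutant of a set had the same mean, and the dispersion was fixed. The gain from the block was thus built in, and these counts do not give the power in the real libraries. Ratios within a set carry exact 95% intervals for counting error. Coordinates are from GENCODE vM21. The text names all 7 genes, and from each list those past the threshold or up to 4 of the most abundant in enterocytes, and says where a gene was named after its values were seen. The 7 genes and the lists were chosen with earlier results of these data known.

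The labels carry no replicate numbers. Deviations of same-set libraries from their genotype means had a Pearson r across genes of 0.73 in all epithelial cells, 0.24 in enterocytes, 0.19 in distal enterocytes and 0.46 in lower villus cells, and the set entered as a replicate block in an alternative only, beside ratios within each set.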

Additional observations from a re-analysis of the deposited data

How the results depend on the processing

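Of 231 log2 ratios of the 7 genes and Cyp3a11 under alternatives that keep all libraries, 218 kept their sign and side of the threshold, 8 reversed and 5, all of Cyp3a11, passed it. The numbers of genes called moved from 0: in all epithelial cells to 6 (DESeq2), 21 (set as replicate block) and 27 (DESeq2 with set term, an alternative chosen after seeing the data); in enterocytes to 22 (no filter on low counts), 8 (replicate block) and 1 (DESeq2 with set term); in distal enterocytes to 27 (no filter); and in lower villus cells to 1 (DESeq2), 28 (no filter) and 14 (DESeq2 with set term). The cause was not tested.

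In all epithelial cells Slc10a2 reversed to -0.13 with the replicate block and -0.13 by DESeq2 with set term, Slc51a to -0.010 and -0.0021, and Nr0b2 to 0.018 and 0.091. With the replicate block Fgf15 in distal enterocytes was 1.05 (edgeR adjusted p = 0.738) and Slc10a2 in lower villus cells -0.89 (edgeR adjusted p = 0.595). Slc51b in enterocytes was 0.050 at resolution 0.5, and Fabp6 in lower villus cells 0.039 with mitochondrial UMIs under 15%. At that limit the distal class also took in a cluster of 534 cells with a median of 13476 UMIs. Resolution 0.5, whose lower villus class holds few cells of wild type 1, moved that class to -2.26 for Slc10a2, -1.01 for Fabp6, -0.77 for Slc51a, -0.81 for Slc51b and -2.12 for Cyp3a11, none past the edgeR threshold (adjusted p = 0.989). Leaving out cluster 5 or 24, chosen after seeing the data, moved Fabp6 in other enterocytes to 1278 CPM in wild type 1 and 1752 CPM in mutant 1. The difference in share of enterocytes, in points, became 7.23 for Fabp6 and 4.97 for Nr1h4 without thinning, and 1.74 for Nr1h4 thinned to 2000 UMIs.

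With 1 library left out, the lone library of a genotype is assumed to vary like the other pair. Calls then numbered 0 to 6 in enterocytes (6 without wild type 1), 15 to 56 in distal enterocytes and 0 to 3 in lower villus cells (2 without wild type 2, 3 without mutant 2). Log2 ratios in all epithelial cells ran from -0.92 to 0.59 for Slc10a2, -0.59 to 0.57 for Fabp6, -0.42 to 0.39 for Slc51a, -0.39 to 0.57 for Slc51b, -0.90 to 1.28 for Nr0b2 and -2.58 to 0.61 for Cyp3a11. In enterocytes they ran from -0.92 to 0.45 for Slc10a2, -0.90 to 0.49 for Fabp6, -0.62 to 0.19 for Slc51a, -0.31 to 0.10 for Slc51b, -0.35 to 0.97 for Fgf15, -0.41 to 0.00999 for Nr1h4 and -1.46 to 0.16 for Nr0b2, and the signs of Slc10a2, Fabp6, Slc51a, Slc51b and Nr1h4 turned without wild type 1, that of Fgf15 without mutant 1. In distal enterocytes they ran from -0.55 to 0.34 for Slc10a2, -0.78 to 0.19 for Fabp6, -0.75 to 0.11 for Slc51b, -0.70 to 0.11 for Nr1h4 and 0.34 to 1.55 for Fgf15. In lower villus cells they ran from -2.39 to 0.65 for Slc10a2, -1.10 to 0.72 for Fabp6, -0.74 to 0.12 for Slc51a, -0.75 to 0.32 for Slc51b and -3.10 to 1.86 for Cyp3a11. Differences in share, in points, ran from -20.9 to 0.023 for Slc10a2, -12.2 to 2.11 for Fabp6, -0.20 to 5.75 for Slc51a, -3.18 to 3.21 for Slc51b, -2.91 to 3.04 for Fgf15 and -0.25 to 0.18 for Nr0b2. Fgf15 in distal enterocytes rested on 30 to 151 UMIs per library.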

Other observations

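In the lymphocyte cluster left after the sort, Fabp6 was 192, 236 and 157 CPM in wild type 1, mutant 1 and wild type 2 and 11807 CPM in mutant 2 (36 cells). The share of those cells with a Fabp6 UMI was 30.8%, 32.3%, 50.0% and 33.3%, and in mutant 2 its 1414 UMIs lay in 12 cells. The 7 Slc10a2 UMIs of those lymphocytes lay in 1 cell, and 3 cells had Slc51a.

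Cluster 25, with 13 cells, all of wild type 2, stayed unnamed and had 19.9 CPM of Fgf15 (4 UMIs) and 34.8 CPM of Slc10a2 (7 UMIs).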
